A study of Mus musculus with 4 samples.

Results

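The integrin and basement membrane genes of epididymal adipose tissue, a visceral fat pad of male mice, were compared between weight-cycled and continuously fed obese mice. The members were every gene symbol that names an integrin α or β subunit or a laminin chain, together with nidogen 1 and nidogen 2 (Nid1, Nid2), perlecan (Hspg2) and agrin (Agrn), whereas integrin-binding proteins were left out. This gave 43 of the 24421 genes in the matrices. They comprised 27 integrin subunits (18 α and 9 β), 11 laminin chains (5 α, 3 β and 3 γ), the 4 proteins nidogen 1, nidogen 2, perlecan and agrin, and Itgbl1, an integrin-like secreted protein that is not a subunit. All mice were wild-type C57BL/6J males. Control (Ctrl) mice began high-fat diet (HFD) when 10 weeks old and stayed on it for 14 weeks. WC1 mice began HFD at the age of 8 weeks and had 2 periods of it, of 8 and 6 weeks, separated by 2 weeks on standard diet. Both groups thus had 14 weeks of HFD and were 24 weeks old at the end. Each group had 2 libraries, made from poly(A) RNA of whole tissue.

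Integrins are αβ heterodimers that hold cells to the extracellular matrix or to other cells. The β2 subunit (Itgb2) and its α partners are carried by leukocytes, whereas β1 (Itgb1) pairs with many α subunits that bind laminin, collagen or the RGD motif of fibronectin and related ligands. Laminins are αβγ trimers that form the sheet of the basement membrane. Nidogens and perlecan link that sheet to the type IV collagen network, and agrin connects laminin to cell surface receptors. In adipose tissue, a basement membrane surrounds each adipocyte and each blood vessel.

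The genomic position of the members was examined first. Itgam, Itgax and Itgad, which encode 3 of the α partners of β2, stood in a row on the plus strand of mouse chromosome 7 (build mm10). Itgam lay at chr7:128062640-128118491 and Itgax began 11.055 kb after its end, at chr7:128129547-128150657. Itgad began 3.718 kb after Itgax, at chr7:128154376-128223816, and the fourth partner, Itgal, ended 727.501 kb before Itgam. Promoter sequences (RefSeq, GRCm38.p6) were on hand for 28 of the 43 members. Those printed are the 250 bases before the start that RefSeq gives, which in Itgax, Nid1 and Hspg2 lies some bases inside the GENCODE gene, for the neighbours Itgam (chr7:128062390-128062639) and Itgax (chr7:128129300-128129549), which stood lower in WC1, and for 4 genes that rose in WC1, Itga1 (chr13:115101965-115102214, minus strand), Nid1 (chr13:13437352-13437601), Hspg2 (chr4:137468553-137468802) and Lama5 (chr2:180225860-180226109, minus strand). Each reads from 5′ to 3′ in the direction of the gene. Capitals mark GAGGAA, a core sequence bound by the myeloid factor PU.1, and GGGCGG, the GC box bound by Sp1, searched on both strands, so that TTCCTC and CCGCCC are the same letters on the other strand. A match of each motif can share 1 base with a match of the other, which does not occur in these windows.
Itgam: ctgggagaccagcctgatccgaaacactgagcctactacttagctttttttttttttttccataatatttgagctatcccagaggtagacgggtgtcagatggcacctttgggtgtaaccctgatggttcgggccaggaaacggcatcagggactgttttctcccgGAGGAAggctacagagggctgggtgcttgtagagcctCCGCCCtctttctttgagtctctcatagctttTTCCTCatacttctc
Itgax: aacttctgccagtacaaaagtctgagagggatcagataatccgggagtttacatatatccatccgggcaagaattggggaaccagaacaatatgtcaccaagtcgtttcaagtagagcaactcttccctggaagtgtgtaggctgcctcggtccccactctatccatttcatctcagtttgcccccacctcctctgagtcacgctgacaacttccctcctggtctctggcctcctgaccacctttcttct
Itga1: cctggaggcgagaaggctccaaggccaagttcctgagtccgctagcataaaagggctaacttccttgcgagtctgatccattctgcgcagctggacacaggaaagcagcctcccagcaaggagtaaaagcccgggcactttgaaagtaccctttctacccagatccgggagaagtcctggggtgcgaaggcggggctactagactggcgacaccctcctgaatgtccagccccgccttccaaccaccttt
Nid1: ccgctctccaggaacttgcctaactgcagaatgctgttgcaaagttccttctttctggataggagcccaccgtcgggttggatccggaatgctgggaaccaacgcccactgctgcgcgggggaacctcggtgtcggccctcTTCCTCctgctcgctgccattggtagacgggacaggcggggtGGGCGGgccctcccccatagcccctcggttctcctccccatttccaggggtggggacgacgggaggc
Hspg2: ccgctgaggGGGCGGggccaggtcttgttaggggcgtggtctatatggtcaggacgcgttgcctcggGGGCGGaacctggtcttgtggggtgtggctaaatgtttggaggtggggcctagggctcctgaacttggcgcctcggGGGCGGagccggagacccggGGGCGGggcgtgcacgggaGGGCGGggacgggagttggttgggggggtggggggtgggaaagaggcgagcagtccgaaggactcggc
Lama5: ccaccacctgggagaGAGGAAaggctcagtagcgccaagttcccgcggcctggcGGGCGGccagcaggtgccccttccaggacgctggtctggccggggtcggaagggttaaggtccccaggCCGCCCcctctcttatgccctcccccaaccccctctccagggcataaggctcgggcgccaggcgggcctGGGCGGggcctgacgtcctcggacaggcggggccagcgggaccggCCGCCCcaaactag
GAGGAA was present in 15 of the 28 members, compared to 23.3% of the 32851 promoters of all genes. Members were counted per gene, as having a motif if any promoter of the gene matched, whereas the shares of all genes were counted per promoter. The 2 are thus not strictly alike. Among members with a promoter, GAGGAA occurred in 4 of the 7 genes higher in WC1 and in 2 of the 4 genes lower in WC1. GGGCGG was present in 12 of the 28 members (32.7% of all promoters) and TATAAA in 0 of the 28 (12.4% of all). GC content was 49.6% for Itgam and 50% for Itgax, compared to 57.6% for Itga1, 64.4% for Nid1, 70.0% for Hspg2 and 72.4% for Lama5, with a median of 52.4% over all promoters. The matches describe letters in these windows and do not show binding.

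The reads assigned to genes, as recovered from the CPM values, numbered 71658062 (Ctrl 1), 90965297 (Ctrl 2), 61655738 (WC1 1) and 61465029 (WC1 2), and 3 reads corresponded to between 0.0345 and 0.0492 CPM (reads relative to a library size that the authors had rescaled). The labels do not say that the 2 libraries of a group came from separate animals, so p-values measure only the spread between these libraries, which may be technical. Summed CPM of 8 adipocyte markers was between 9656 and 22266 per library, and 3 of 5 markers of the epididymis (Crisp1, Lcn5 and Spint4) were at 0 in every library. The other 2 summed to between 0.127 and 3.24 CPM. Levels of each member are given as CPM, whereas levels of different genes are compared as TPM, which corrects for transcript length. Differences were tested with limma on log2(CPM + 1) over the 14106 genes that reached 0.5 CPM in 2 or more libraries, and a gene was called at a Benjamini-Hochberg adjusted p under 0.05.

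First, the members were compared between groups as a whole. Of the 38 members tested, 10 rose and 5 fell in WC1 mice compared to control mice. The genes that rose were the α subunits Itga1, Itga6 and Itga7, the laminin chains Lama4, Lama5, Lamb2 and Lamb3, and Nid1, Hspg2 and Agrn. Those that fell were Itgb2, Itgam, Itgb7, Itga4 and Itga2b. Thus 15 of 38 members were called, compared to 17.9% of all genes tested (10.2% higher and 7.71% lower). The WC1 libraries lay above both Ctrl libraries in 14 members and below both in 16, as they did in 32.7% and 36.6% of all genes, together 69.3%. The median log2 fold change was 0.01 over the members and -0.02 over all genes. Each of the 15 called members kept its direction in every alternative setting. However, none was called by limma without Ctrl 1 or without Ctrl 2, where 14 and 15 members had a limma p under 0.05 before adjustment. With every library the number was 22. Without a filter on low values, which adds genes to the adjustment, limma called 5 members higher and 2 lower.

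**Figure D1:**
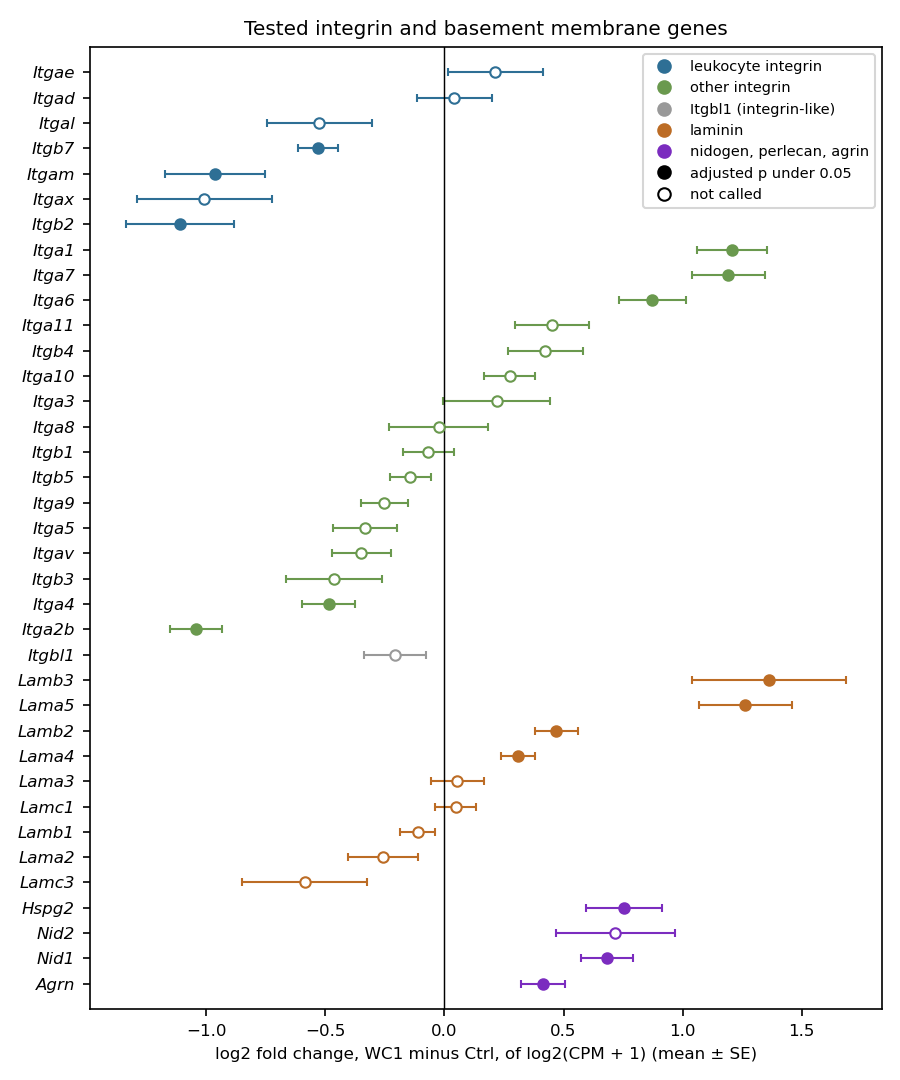
Log2 fold change (WC1 minus Ctrl, on log2(CPM + 1), mean ± SE from limma) of 37 tested members, grouped by class and ordered within it; filled circles have an adjusted p under 0.05. The leukocyte integrins Itgb2, Itgax and Itgam lie near -1, whereas Itga1, Itga7, Lama5 and Lamb3 lie above 1 and Itgb1 and Lamc1 lie near 0.

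The next question was whether leukocyte integrins and other integrins differed. The leukocyte integrins were β2, its 4 α partners, the β2-like subunit Itgb2l, β7 and its partner αE. Of the 7 tested, 3 fell and 0 rose (7.71% and 10.2% of all genes tested), with a median log2 fold change of -0.53. Their range was from -1.11 to 0.21. Of the 16 other integrins tested, 3 rose and 2 fell (10.2% and 7.71% of all genes tested), with a median of -0.05. They ranged from -1.04 to 1.21. The WC1 libraries lay below both Ctrl libraries in 5 of the 7 leukocyte integrins, compared to 7 of the 16 others, in which a further 6 lay above. Of all genes tested, 36.6% lay below and 32.7% above. Without a filter on low values, limma called 1 leukocyte integrin lower. The summed TPM of the 8 leukocyte integrins was 1565 and 1471 in Ctrl 1 and Ctrl 2, compared to 1014 and 661 in WC1 1 and WC1 2. The summed TPM of the 19 others was 789.9 and 809 in Ctrl against 945 and 965 in WC1. Leukocyte integrins therefore made up 66.5% and 64.5% of integrin subunit transcripts in Ctrl and 51.7% and 40.6% in WC1, and the groups did not overlap.

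Itgb2, the β subunit shared by the main leukocyte integrins, was the most abundant integrin transcript in control mice. Its level was 1348 and 1252 CPM in the Ctrl libraries, compared to 749 CPM in WC1 1 and 482 CPM in WC1 2, a mean 2.11-fold lower. Both WC1 libraries lay far below both Ctrl libraries, and WC1 2 was the lowest. The log2 fold change was -1.11 ± 0.23 (SE, limma adjusted p = 0.036, n = 2 per group). In TPM, Itgb2 stood at 899.9 and 844 in Ctrl against 355 and 359.5 for Itgb1, compared to 545 against 389 in WC1 1 and 362 against 363 in WC1 2. Itgb2 was thus above Itgb1 in 3 libraries and level with it in WC1 2. The share of Itgb2 among β subunits was 62.0% and 60.4% in Ctrl and 48.2% and 39.9% in WC1.

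Itgam encodes CD11b, the α subunit of the complement receptor Mac-1 on macrophages, monocytes and neutrophils. It had 568 and 534 CPM in the Ctrl libraries and 348 and 228 CPM in the WC1 libraries, a mean 1.91-fold lower. Its log2 fold change was -0.96 ± 0.21 (limma adjusted p = 0.041). In TPM, where the median of all genes stood at 0.10 in place of -0.02, the log2 fold change of Itgam was -0.82 and its adjusted p was 0.051 (limma). Itgax encodes CD11c, which marks dendritic cells and the macrophages that gather in obese fat. It had 816 and 760.3 CPM in the Ctrl libraries and 525 and 291 CPM in the WC1 libraries. The groups did not overlap and the log2 fold change was -1.01 ± 0.28, but WC1 2 was far below WC1 1 and the limma adjusted p of 0.068 missed the threshold. Itgax was called in 4 of 14 alternatives, with a limma adjusted p of 0.010 without WC1 2, where its log2 fold change was -0.58.

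Itgal encodes CD11a, the α subunit of LFA-1 on lymphocytes. It had 14.7 and 11.1 CPM in the Ctrl libraries and 7.0 and 10.4 CPM in the WC1 libraries (log2 fold change -0.52 ± 0.22, limma adjusted p = 0.15). Itgad encodes CD11d, a β2 partner found on tissue macrophages. It differed from Itgam and Itgax in its values, with 37.4 and 34.2 CPM in Ctrl and 43.0 and 31.5 CPM in WC1. The groups overlapped and the log2 fold change was 0.04 ± 0.16 (limma adjusted p = 0.87), with a 95% interval from -0.37 to 0.45.

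The makeup of the β2 family was then compared within each library, which does not depend on the scaling between libraries. By TPM, Itgax made up 60.3% and 60.2% of the α partners of β2 in Ctrl and 60.1% and 55.2% in WC1. Itgam made up 36.1% and 36.4% in Ctrl against 34.3% and 37.2% in WC1. The share of Itgad was 2.81% and 2.75% in Ctrl and 5.0% and 6.07% in WC1, and it was the only 1 of the 4 shares that was higher in both WC1 libraries than in both Ctrl libraries. As a percentage of the Itgb2 level in CPM, Itgad stood at 2.78 and 2.73 in Ctrl and at 5.75 and 6.55 in WC1. The smallest p that an exact permutation test can give with 2 libraries per group is 0.333, and no test of these shares was made. In the annotated transcripts, 8.43% of the 50-base sequences of Itgad were also in Itgax, so part of the reads of these genes could be assigned either way. For Itgam, 66.3% were also in other gene models, of which the overlapping Gm49368 shared the most. That model is not in the matrices, so it has no level here.

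**Figure D2:**
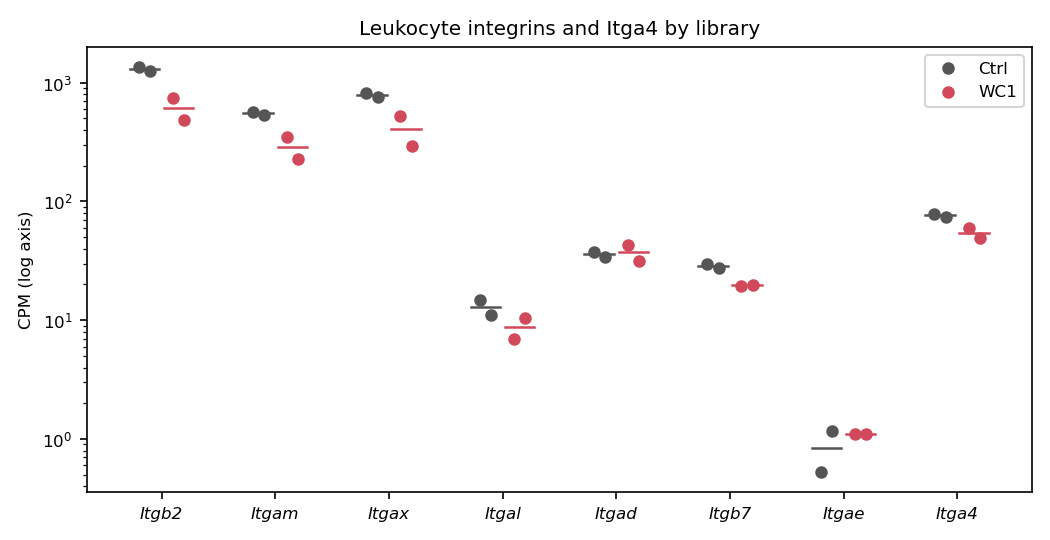
Levels of the 7 detected leukocyte integrins and Itga4 in each library, in CPM on a log axis; points are libraries and lines are group means. Itgb2, Itgam and Itgax lie lower in both WC1 libraries, whereas the WC1 libraries of Itgad lie at 43.0 and 31.5 CPM, around its Ctrl levels.

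Macrophage markers were lower in the same libraries, whereas markers of other leukocytes gave other values. The summed level of 9 macrophage markers was between 8737 and 9689 CPM in Ctrl and between 3952 and 5558 CPM in WC1. All 9 had a log2 fold change below 0, with 4 called lower, and none was near 0 CPM. Fewer macrophages and less RNA per macrophage cannot be told apart in whole tissue. Per 1000 CPM of these markers, Itgam stood at 58.6 and 61.1 in Ctrl and 62.7 and 57.8 in WC1, and Itgax at 84.3 and 87.0 in Ctrl and 94.5 and 73.8 in WC1, so that the groups overlapped for both genes. Itgb2 stood at 139 and 143 in Ctrl against 135 and 122 in WC1. In contrast, Itgad was at 3.86 and 3.91 in Ctrl and at 7.74 and 7.98 in WC1 on the same scale. The overlap of Itgam and Itgax rested on Lyz2, the lysozyme of myeloid cells, which made up 63.9% and 61.3% of the macrophage sum in Ctrl and 51.7% and 51.8% in WC1. Per 1000 CPM of the other 8 macrophage markers, Itgam stood at 162 and 158 in Ctrl and 129.8 and 120.01 in WC1, and Itgax at 233 and 225 in Ctrl and 196 and 153 in WC1, so that both were lower in WC1. Itgb2 was lower on that scale too (385 and 369.9 in Ctrl, 279 and 253 in WC1), and Itgad was again higher in WC1 (10.7 and 10.1 in Ctrl, 16.0 and 16.6 in WC1). Of 11 T and NK cell markers, 0 were called, with sums between 15.2 and 21.3 CPM in Ctrl and between 14.9 and 25.1 CPM in WC1. Neutrophil markers summed to between 20.6 and 21.6 CPM in Ctrl and 24.6 and 30.1 CPM in WC1 (1 of 3 tested called higher, Retnlg and Cxcr2 under 0.5 CPM). The marker called higher was S100a8, named after its values were seen, and the other 5 lay lower in both WC1 libraries, with a sum of 14.6 and 15.9 CPM in Ctrl and 12.2 and 11.4 CPM in WC1. Dendritic cell markers summed to between 25.1 and 32.3 CPM over all libraries (1 of 6 called higher and 2 lower). B cell markers summed to 4.47 and 2.59 CPM in Ctrl and 7.47 and 26.9 CPM in WC1 (1 of 4 tested called higher, Pax5 under 0.5 CPM).

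Itgb7 and Itga4 form α4β7, which guides lymphocytes and mast cell progenitors into tissues, and Itga4 also pairs with β1 as VLA-4. Itgb7 had 30.0 and 27.8 CPM in the Ctrl libraries and 19.4 and 20.0 CPM in the WC1 libraries. The 2 libraries of each group lay close together and the log2 fold change was -0.53 ± 0.08 (limma adjusted p = 0.023). Itga4 had 79.1 and 74.1 CPM in the Ctrl libraries and 59.9 and 49.3 CPM in the WC1 libraries, which gave a log2 fold change of -0.49 ± 0.11 (adjusted p = 0.045, limma). This call was lost in TPM, where the log2 fold change was -0.33 and the limma adjusted p was 0.095. Itgae, the αE partner of β7 on T cells and dendritic cells of epithelia, was at a low level, 0.526 to 1.16 CPM in all libraries, and its groups overlapped. Counting Itga4 among the leukocyte integrins gave 4 lower of 8 tested and left 1 lower among 15 others. Per 1000 CPM of macrophage markers, Itgb7 stood at 3.10 and 3.18 in Ctrl and 3.49 and 5.05 in WC1, and Itga4 at 8.16 and 8.49 in Ctrl against 10.8 and 12.5 in WC1. Without Lyz2, the largest of these markers, the groups overlapped in both genes, with Itgb7 at 8.58 and 8.21 in Ctrl and 7.23 and 10.5 in WC1 and Itga4 at 22.6 and 21.9 in Ctrl and 22.3 and 25.9 in WC1. Summed mast cell markers were at 398 and 436 CPM in Ctrl, against 63.6 and 52.2 CPM in WC1, with 5 of 6 called lower. The part of mast cells in the fall of Itgb7 and Itga4 was not tested.

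Itga2b, the αIIb subunit of the platelet fibrinogen receptor, which megakaryocytes and some blood progenitors also carry, had the smallest adjusted p of the members. It had 5.97 and 6.15 CPM in the Ctrl libraries and 2.49 and 2.35 CPM in the WC1 libraries, a 2.50-fold lower mean and a log2 fold change of -1.04 ± 0.11 (adjusted p = 0.014, limma). Its partner Itgb3, which also pairs with αv on endothelial cells, osteoclasts and macrophages, had 21.7 and 21.4 CPM in the Ctrl libraries and 19.0 and 12.3 CPM in the WC1 libraries (-0.46 ± 0.20, limma adjusted p = 0.17). Platelet markers summed to between 85.1 and 94.8 CPM in Ctrl and between 44.6 and 52.2 CPM in WC1, where 1 of 2 tested markers was called lower. Pf4, the chemokine platelet factor 4, made up 98.4% to 98.7% of this sum, and the other 4 markers together stood at 0.635 to 1.47 CPM. The defining platelet receptor genes Gp1ba and Gp9 were under 0.5 CPM in every library and Gp6 was at 0. The mast cell markers above were lower in the same libraries, and the part of either cell type in the fall of Itga2b was not tested.

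Next, the receptors for laminin and collagen were examined. Of these, 3 α subunits rose, although their common partner Itgb1 did not pass the test. Itga7, the laminin receptor subunit of muscle and vessel wall, had 146 and 156 CPM in the Ctrl libraries and 298 and 401 CPM in the WC1 libraries, a mean 2.32-fold higher. Both WC1 libraries were well above both Ctrl libraries, and the log2 fold change was 1.19 ± 0.15 (limma adjusted p = 0.018). Some Itga7 exons overlap Mettl7b on the other strand, which was at 2.65 to 7.47 CPM. Itga6, which forms laminin receptors with β1 on endothelial cells and with β4 in epithelia, had 95 and 101 CPM in the Ctrl libraries and 157 and 206 CPM in the WC1 libraries (0.87 ± 0.14, limma adjusted p = 0.024). Itga1, a collagen receptor subunit with affinity for type IV collagen, had 13.4 and 14.3 CPM in the Ctrl libraries and 29.0 and 38.1 CPM in the WC1 libraries, 2.42-fold higher on average (1.21 ± 0.15, limma adjusted p = 0.016). In each of the 3 genes WC1 2 was the higher WC1 library, and without it the log2 fold changes were 0.98, 0.68 and 1.02 for Itga7, Itga6 and Itga1.

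Other subunits of these receptors were not called. Itgb1 had 779 and 781 CPM in the Ctrl libraries and 784 and 707 CPM in the WC1 libraries. Its log2 fold change was -0.07 ± 0.11, with a 95% interval from -0.34 to 0.20 (limma adjusted p = 0.67). Itgb4, the β partner of α6, had 6.29 and 6.61 CPM in the Ctrl libraries and 7.75 and 10.4 CPM in the WC1 libraries (0.42 ± 0.16, limma adjusted p = 0.12). Itga3, another laminin receptor subunit, overlapped between groups, with 8.85 to 8.92 CPM in Ctrl and 8.19 to 13.4 CPM in WC1. The collagen receptor subunits Itga10 and Itga11 were at 3.76 to 3.86 and 13.8 to 18.4 CPM in Ctrl, against 4.73 to 4.90 and 20.9 to 23.6 CPM in WC1, with log2 fold changes of 0.27 and 0.45 (limma adjusted p = 0.13 and 0.11). A share of 30.6% of the 50-base sequences of Itga10 was also in other gene models, of which Gm42957, not in the matrices, shared the most. Itga2, which encodes another collagen receptor subunit, stayed under 0.5 CPM in every library and was not tested.

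Of the other receptors for RGD and related ligands, none was called besides Itga2b and Itga4, described above. Itga5, the fibronectin receptor subunit, had 207 and 224 CPM in the Ctrl libraries and 193 and 151 CPM in the WC1 libraries (-0.33 ± 0.13, limma adjusted p = 0.14). Itgav, which binds vitronectin and activates latent TGF-β, had 98.6 and 91.3 CPM in the Ctrl libraries and 83.3 and 66.3 CPM in the WC1 libraries (-0.35 ± 0.13, limma adjusted p = 0.11). Itgb5, a partner of αv, was at 280.2 to 287 CPM in Ctrl and 243 to 271 CPM in WC1 (-0.14). Itga8 overlapped between groups at 0.459 to 0.985 CPM. Itga9, which binds tenascin and osteopontin, was at 27.4 to 31.7 CPM in Ctrl and 24.1 to 25 CPM in WC1 (-0.25, limma adjusted p = 0.13). Itgb6 and Itgb2l were at 0 in every library, Itgb8 was between 0.0690 and 0.238 CPM, and Itgbl1 was between 16.7 and 22.7 CPM with overlapping groups.

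Because the α subunits of β1 changed in different directions, their makeup was calculated within each library from TPM. The laminin-binding subunits Itga3, Itga6 and Itga7 together made up 40.6% and 40.7% of the 12 partners of β1 in Ctrl and 57.3% and 68.1% in WC1. Itga7 alone went from 27.2% and 27.5% to 41.5% and 49.5% and was the most abundant partner in both WC1 libraries. In control mice the most abundant partner was Itga5, with 35.4% and 36.4%, compared to 24.7% and 17.2% in WC1. The RGD-binding subunits Itga5, Itga8 and Itgav made up 45.9% and 45.7% in Ctrl against 31.4% and 21.9% in WC1. Itga4 and Itga9 had 9.03% and 8.72% in Ctrl and 5.41% and 4.20% in WC1, and the collagen-binding subunits 4.41% and 4.88% in Ctrl against 5.94% and 5.76% in WC1. For all 4 kinds the Ctrl libraries differed from each other by less than from either WC1 library. The sum of the α partners relative to Itgb1 was 0.720 and 0.756 in Ctrl and 0.957 and 1.2 in WC1, as a ratio of TPM.

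**Figure D3:**
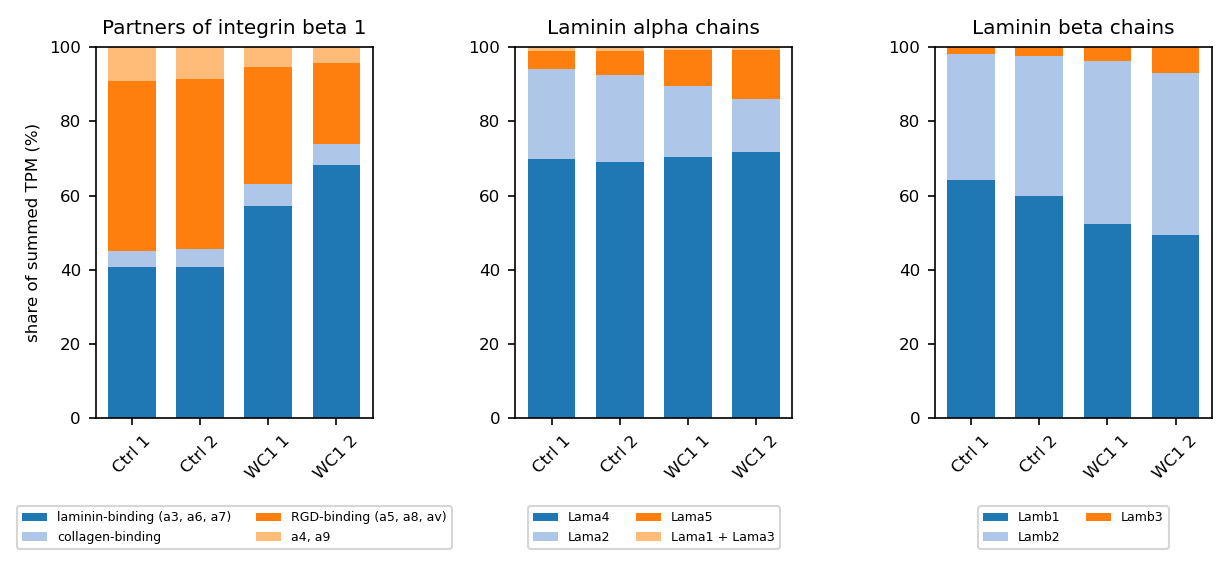
Share of summed TPM (%) within each library of the α partners of integrin β1 by ligand (left), the laminin α chains (middle) and the laminin β chains (right); bars are the 4 libraries. In WC1 the laminin-binding share of the β1 partners is 57.3% and 68.1% against 40.6% and 40.7% in Ctrl, and the shares of Lama5, Lamb2 and Lamb3 are larger.

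The laminin chains were compared next. Of the 10 chains tested, 4 rose and 0 fell (10.2% and 7.71% of all genes tested), with a median log2 fold change of 0.05 and a range from -0.59 to 1.36. Among the α chains, which carry the receptor-binding end of the trimer, Lama4 of the endothelial and adipocyte basement membrane had 184 and 176 CPM in the Ctrl libraries and 219 and 227 CPM in the WC1 libraries. Its increase was small and even, with a log2 fold change of 0.31 ± 0.07 (adjusted p = 0.046 in limma; edgeR adjusted p = 0.052). Lama5, the α chain of mature vessels and epithelia, had 23.9 and 30.4 CPM in the Ctrl libraries and 55.9 and 78.3 CPM in the WC1 libraries, a mean 2.47-fold higher (1.26 ± 0.20, limma adjusted p = 0.023). Lama2, the α chain of muscle and nerve, had 103 and 95.8 CPM in the Ctrl libraries and 95.7 and 71.8 CPM in the WC1 libraries (-0.26 ± 0.15, limma adjusted p = 0.26). Lama3 overlapped between groups at 4.45 to 5.02 CPM, and Lama1 was between 0.0477 and 0.147 CPM and was not tested. In TPM, Lama4 made up 69.1% to 71.8% of α chains in all libraries. The share of Lama5 was 4.82% and 6.34% in Ctrl and 9.52% and 13.1% in WC1, whereas that of Lama2 was 24.3% and 23.5% in Ctrl and 19.1% and 14.1% in WC1.

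Among the β chains, Lamb2, the β chain of mature vessel walls and synapses, had 138 and 156 CPM in the Ctrl libraries and 196 and 211 CPM in the WC1 libraries (0.47 ± 0.09, limma adjusted p = 0.033). Lamb1, which is found in most basement membranes, had 269 and 255 CPM in the Ctrl libraries and 240.1 and 244 CPM in the WC1 libraries (-0.11 ± 0.07, limma adjusted p = 0.32). The ratio of Lamb2 to Lamb1 was 0.528 and 0.628 in Ctrl against 0.839 and 0.888 in WC1, in TPM. Lamb3, a chain of epithelial basement membranes, had 5.23 and 7.23 CPM in the Ctrl libraries and 12.5 and 24.1 CPM in the WC1 libraries. Its log2 fold change of 1.36 ± 0.32 was the largest of the 38 tested members, but the libraries of each group lay far apart and the limma adjusted p was 0.048. The call was lost in 7 of 14 alternatives, where the adjusted p reached 0.25. Lamc1, the common γ chain, had 449.7 and 461 CPM in the Ctrl libraries and 484 and 458 CPM in the WC1 libraries. Its log2 fold change was 0.05 ± 0.09, with a 95% interval from -0.17 to 0.27. Lamc3 had 13 and 10.4 CPM in the Ctrl libraries and 5.56 and 9.79 CPM in the WC1 libraries (-0.59, limma adjusted p = 0.17).

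The proteins that link laminin to other parts of the matrix were described next. All 4 were higher in both WC1 libraries than in both Ctrl libraries and 3 of the 4 were called, compared to 32.7% and 10.2% of all genes tested, with a median log2 fold change of 0.70. Nid1, which joins the laminin γ1 chain to type IV collagen, had 623 and 655 CPM in the Ctrl libraries and 975 and 1078 CPM in the WC1 libraries, a mean 1.61-fold higher (0.68 ± 0.11, limma adjusted p = 0.024). Hspg2, the heparan sulfate proteoglycan perlecan, had 779.8 and 906 CPM in the Ctrl libraries and 1283 and 1569.6 CPM in the WC1 libraries, a mean 1.69-fold higher (0.75 ± 0.16, limma adjusted p = 0.038). Agrn, a proteoglycan best known from the neuromuscular junction, had 30.9 and 32.3 CPM in the Ctrl libraries and 39.7 and 45.2 CPM in the WC1 libraries (0.41 ± 0.09, limma adjusted p = 0.042), and without WC1 2 its limma adjusted p was 0.052. Nid2, the second nidogen, had 71.9 and 69.2 CPM in the Ctrl libraries and 89.2 and 153 CPM in the WC1 libraries. Its log2 fold change was 0.72 ± 0.25, but WC1 2 was far above WC1 1 and the limma adjusted p was 0.11. Relative to Lamc1, the level of Nid1 was 1.75 and 1.79 in Ctrl and 2.54 and 2.97 in WC1, and that of Hspg2 was 0.932 and 1.06 in Ctrl and 1.42 and 1.84 in WC1, as ratios of TPM.

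**Figure D4:**
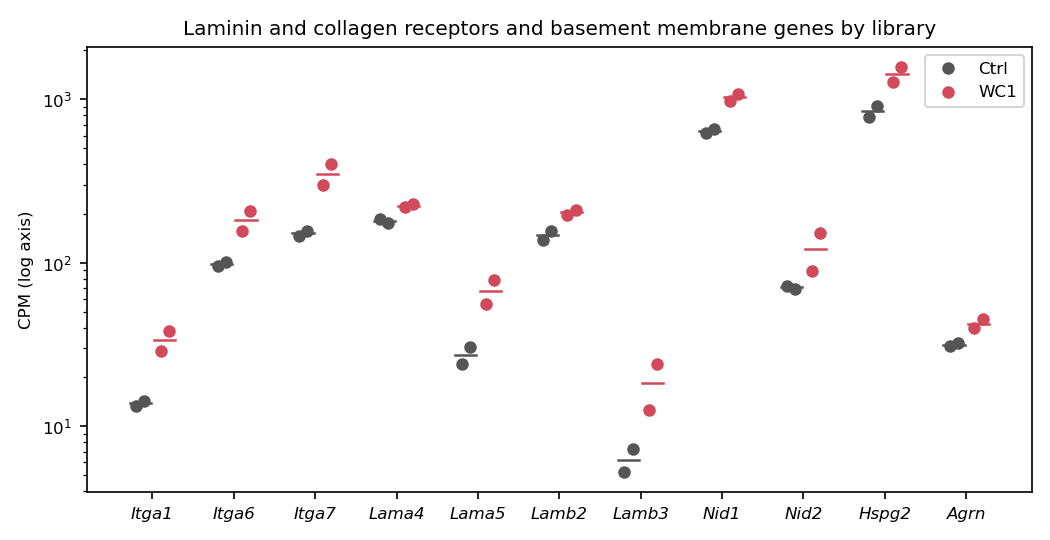
Levels of the 10 members that rose in WC1 and of Nid2 in each library, in CPM on a log axis; points are libraries and lines are group means. Both WC1 libraries lie above both Ctrl libraries in every gene, by the least in Lama4 and with the widest spread between WC1 libraries in Lamb3 and Nid2.

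Markers of vessels and adipocytes moved with the members that rose. The 9 endothelial markers summed to 492 and 545 CPM in Ctrl and to 1018 and 1295 CPM in WC1, with 7 called higher and all 9 higher in both WC1 libraries. The 8 adipocyte markers summed to 9656 and 10786 CPM in Ctrl and to 17338 and 22266 CPM in WC1 (6 of 8 called higher). The 8 pericyte and smooth muscle markers summed to 395 and 402 CPM in Ctrl and to 587 and 646 CPM in WC1 (4 of 8 called higher). Per 1000 CPM of endothelial markers, Itga7 stood at 298 and 285 in Ctrl and at 293 and 309.9 in WC1, and Lama5 at 48.7 and 55.7 in Ctrl and at 54.9 and 60.4 in WC1, with overlapping groups in both genes. Without Cdh5, the largest of these markers, both lay higher in WC1 (Itga7 at 382 and 372 in Ctrl, 396 and 428 in WC1). Itga1 stood at 27.2 and 26.2 in Ctrl and at 28.5 and 29.4 in WC1. By contrast, 6 members stood lower in WC1 on this scale: Itga6 (193 and 185 in Ctrl, 155 and 159 in WC1), Lama4 (375 and 322, 216 and 175), Lamb2 (281 and 286, 193 and 163), Nid1 (1266 and 1200.5, 958 and 832), Hspg2 (1586 and 1662, 1259.6 and 1212) and Agrn (62.7 and 59.2, 39.0 and 34.9). Lamb3 on this scale overlapped between groups, at 10.6 to 13.3 in Ctrl and 12.3 to 18.6 in WC1. Per 1000 CPM of pericyte and smooth muscle markers, Itga1 (33.9 and 35.6 in Ctrl, 49.3 and 59.0 in WC1), Itga7 (370.5 and 387, 508 and 621) and Lama5 (60.6 and 75.5, 95.1 and 121) were higher in both WC1 libraries, as were Itga6, Nid1 and Lamb3. Lama4, Lamb2 and Agrn were lower, and Hspg2 overlapped between groups. Without Pdgfrb, the largest of these markers, Nid1 turned from higher (1576 and 1627, 1660.3 and 1668) to lower (2519 and 2516, 2253 and 2152), Hspg2 lay lower and Itga6 overlapped. Per 1000 CPM of adipocyte markers, 4 of the 10 members that rose were higher in both WC1 libraries (Itga1, Itga7, Lama5 and Lamb3) and 6 were lower (Itga6, Lama4, Lamb2, Nid1, Hspg2 and Agrn). Without Fabp4, the largest adipocyte marker, Itga7 overlapped and the others kept their side. The part of these cell types in the rise of the members was not tested.

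**Figure D5:**
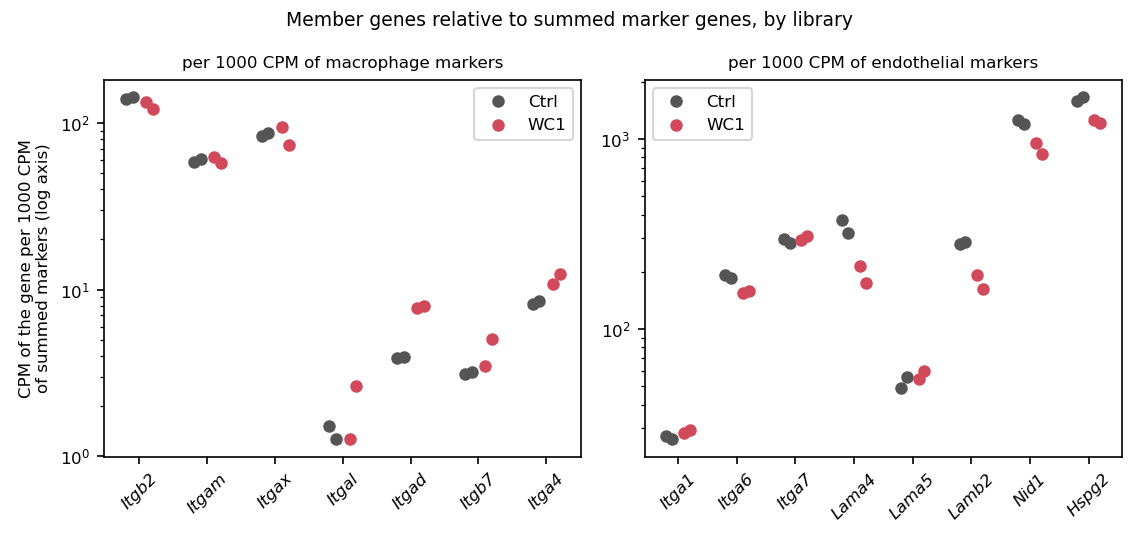
Levels of leukocyte integrins and Itga4 per 1000 CPM of summed macrophage markers (left) and of basement membrane genes and their receptors per 1000 CPM of summed endothelial markers (right), on log axes; points are libraries. On the left Itgam and Itgax overlap between groups (without the marker Lyz2 both are lower in WC1) and Itgad is higher in WC1, and on the right Itga7 and Lama5 overlap (without the marker Cdh5 both are higher in WC1) while Lama4, Lamb2, Nid1 and Hspg2 are lower in WC1.

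The remaining cell types were measured in the same way. The 9 fibroblast and progenitor markers summed to between 5424 and 5517 CPM in Ctrl and between 4091 and 5107 CPM in WC1, with 4 called lower. Mesothelial markers summed to 110.2 and 80.8 CPM in Ctrl and 56.5 and 149 CPM in WC1 (0 of 5 called) and Schwann cell markers to between 3.22 and 4.21 CPM in all libraries (0 of 3 tested called, Sox10 and Cdh19 under 0.5 CPM). Skeletal muscle markers, of which Acta1 made up 88.9% to 95.1%, summed to 6.48 and 8.98 CPM in Ctrl and 18.0 and 17.5 CPM in WC1, of which Ckm, Myh4 and Tnnt3 were under 0.5 CPM and the only 1 tested was called higher.

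Finally, genes that act with the members were examined. Over 5 lists with 86 tested genes, 20 rose and 9 fell, where 10.2% and 7.71% of all genes tested rose and fell. Among 22 other basement membrane proteins, 6 rose and 2 fell, with a median log2 fold change of 0.41. Smoc1, a calcium-binding matrix protein, had 64.0 and 61.7 CPM in the Ctrl libraries and 119 and 148 CPM in the WC1 libraries (1.07 ± 0.12, limma adjusted p = 0.014). Pxdn, the peroxidase that crosslinks type IV collagen, had 134 and 159.8 CPM in the Ctrl libraries and 269.8 and 347 CPM in the WC1 libraries (1.06 ± 0.15, limma adjusted p = 0.021). Fbln1, a fibulin that binds laminin and fibronectin, went the other way, from 76.1 and 79.4 CPM in Ctrl to 38.4 and 45.3 CPM in WC1 (-0.88 ± 0.10, limma adjusted p = 0.015).

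Among 13 tested genes of other laminin receptors and proteins that act with them, 4 rose and 1 fell, with a median of 0.19. Those that rose, Sgcd, Sspn, Dmd and Utrn, encode parts of the dystrophin complex, which holds cells to laminin. They are not laminin receptors themselves. Utrn and Sspn rose by log2 fold changes of 0.84 ± 0.12 and 0.72 ± 0.10 (limma adjusted p = 0.020 for both). Dag1, the laminin receptor of this complex, was not called (-1.95 ± 1.46, limma adjusted p = 0.38). It had 9.33 and 251 CPM in Ctrl and 12.8 and 11.7 CPM in WC1, so its Ctrl libraries lay far apart. Dag1 was named after its values were seen. Sdc4, a heparan sulfate receptor of focal adhesions, had a log2 fold change of -0.61 ± 0.07 (adjusted p = 0.017, limma). Of 31 focal adhesion proteins on the inner side of the membrane, 6 rose and 0 fell, with a median of -0.06. That is 19.4% of the list, near the 17.9% called among all genes tested. The 3 with the smallest p were Fermt2 (0.98 ± 0.10, limma adjusted p = 0.014), a kindlin that activates integrins, Kank1 (0.73 ± 0.09, limma adjusted p = 0.016), which binds talin, and Tln2 (1.02 ± 0.15, limma adjusted p = 0.022), a talin.

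The ligands moved in both directions. Of 8 counter-receptors of leukocyte integrins tested, 2 rose and 3 fell. Icam2, an endothelial ligand of LFA-1, had 9.91 and 10.2 CPM in the Ctrl libraries and 19.0 and 23.8 CPM in the WC1 libraries (1.01 ± 0.13, limma adjusted p = 0.018). Icam1, the inducible ligand of LFA-1 and Mac-1, had 61.3 and 61.7 CPM in the Ctrl libraries and 46.1 and 41.8 CPM in the WC1 libraries (-0.48 ± 0.08, limma adjusted p = 0.025). Thy1, which binds Mac-1, had 74.0 and 74.8 CPM in the Ctrl libraries and 48.7 and 39.2 CPM in the WC1 libraries (-0.75 ± 0.12, limma adjusted p = 0.023). Of 12 matrix ligands of other integrins, 2 rose and 3 fell. Spp1, which encodes osteopontin, a ligand of αv, α4 and α9 integrins made by macrophages, had 557 and 428 CPM in the Ctrl libraries and 103 and 53.4 CPM in the WC1 libraries. This was a mean 6.30-fold lower level, with a log2 fold change of -2.70 ± 0.33 (adjusted p = 0.016, limma), and macrophage markers were lower in the same libraries as given above. Tnc, which encodes the α9 ligand tenascin C, rose (1.2 ± 0.16, limma adjusted p = 0.019) and Edil3, an αv ligand, fell (-0.88 ± 0.15, limma adjusted p = 0.026).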

How the data were processed

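RNA-seq of epididymal adipose tissue was analysed in 2 Ctrl and 2 WC1 libraries, grouped by their titles. Per the submitters' processing notes, fastp, HISAT2 and StringTie were used with build mm10 (versions, annotation, read counter and strand setting not given in the sources used here). The authors deposited a CPM matrix, treated here as a signal because its columns sum to between 97.6% and 105% of the sum of plain CPM, and a TPM matrix. In each library 100% of the CPM values were whole multiples of the value of 1 read (tolerance 0.01 read). The signal was transformed to log2(CPM + 1), on which fold changes of low genes are understated, and limma 3.58.1 tested WC1 against Ctrl (R 4.3.3, trend, two-sided, Benjamini-Hochberg over all genes tested, threshold 0.05). Genes needed 0.5 CPM in at least 2 libraries, which kept 14106 and 38 of the 43 members. Errors are SE from limma. The fits with limma, edgeR and DESeq2 were tested on simulated data, whose spread between libraries was set and not taken from these libraries. The steps for shares, marker ratios, positions and promoters were not tested in this way. edgeR 4.0.16 and DESeq2 1.42.0 were run on the recovered reads as alternatives.

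The members, gene lists and marker lists were chosen with earlier results of these data known. Every member is named except 1 that is not reported here, called members with a value in every library, as are the 3 genes with the smallest p of each pathway list. Of marker lists defining genes near 0 are named, and S100a8 and the largest markers of a sum, chosen after their values were seen. Ratios to summed markers were repeated without the largest marker, also chosen after seeing the data. All 43 members were matched to GENCODE M21 (mm10) for positions. Exons of 11 members overlap a gene on the opposite strand. Those of 4 members (Itga1, Itga10, Itgad and Itgam) overlap a gene model on the same strand that is not in the matrices. Further, 9 members share more than 1% of their 50-base sequences with another gene. Ccn2 was matched by its older symbol, and Ccn1, Hmcn2, Ly6g and Muc16 were not matched. Library numbers 1 and 2 are shared by the groups, but the labels do not say that they pair libraries.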

Additional observations from a re-analysis of the deposited data

How the results depend on the processing

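Of the 43 members, 5 were too low to be tested, and with 2 libraries per group the p-values rest on few values. Over the member log2 fold changes under all alternatives, 450 kept their direction and their side of the threshold, 46 lost a call, 17 gained a call and 13 changed sign. The 13 concern members that were not called: Itga8 (0.019), Itgb1 (0.073) and Lamb1 (0.029) in TPM, Itgb1 (0.043) and Lama3 (-0.031) with quantile normalization, and 6 members when 1 library was left out. These ranged from -0.10 to 0.54 for Itga3, -0.25 to 0.20 for Itga8, -0.18 to 0.26 for Itgad, -0.038 to 0.46 for Itgae, -0.14 to 0.0067 for Itgb1 and -0.0012 to 0.11 for Lama3. TPM moved the median of all genes from -0.02 to 0.10. Leaving out each library in turn gave 0 to 13 members higher and 0 to 10 lower, 0 to 5 leukocyte integrins lower, 0 to 5 other integrins higher and 0 to 5 lower, 0 to 8 laminins, nidogens, perlecan and agrin higher, and 0 to 28 genes of the pathway lists higher and 0 to 22 lower. The 0 values came without Ctrl 1 and without Ctrl 2, where limma called 2 and 6 of all genes higher and 4 and 6 lower. The exception was the pathway genes without Ctrl 1, of which 1 was lower. The largest counts came without WC1 1, except for the leukocyte integrins, where without WC1 2 gave 5. Without a filter on low values, 5 members were higher and 2 lower, with 1 leukocyte integrin and 1 other integrin lower, 2 laminins or linking proteins higher and 12 pathway genes higher. TPM gave 3 members lower and 1 other integrin lower. A filter at a mean of 5 CPM removed 6 members, Itga2b among them, and gave 1 other integrin lower, as did counting Itga4 as a leukocyte integrin. The cause of the other changes was not tested. The median of other integrins lay between -0.10 and 0.05 over all alternatives. With the library number as a replicate block, 10 members were higher and 7 lower, as Itgax and Itgav were added, and 4 leukocyte integrins and 3 other integrins were lower. The deviations of same-numbered libraries correlated with r = 0.19, and the labels do not say that the numbers pair libraries. edgeR called 9 members higher and 5 lower, and DESeq2 called 12 and 6.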
